A study of Mus musculus with 4 samples.

Results

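CD4 CD8 double-negative T cells carry the CD3 complex but neither coreceptor, and they were examined in viable CD45-positive cells sorted from MC38 tumors, a transplanted mouse colon carcinoma, by single-cell RNA sequencing with hybridized gene probes (10x Flex). Members were selected on their own RNA: at least 500 detected genes, at most 10% mitochondrial UMIs, at least 3 UMIs of Cd3d, Cd3e and Cd3g together, under 0.2% of UMIs on C1qa, C1qb, C1qc and Csf1r, and no UMI of Cd4, Cd8a, Cd8b1, Foxp3 or Il1rl1. A UMI is a molecular identifier and counts 1 captured molecule. The rule found 315 cells among the 28194 that passed the limits on genes and mitochondrial UMIs, and they made up 17.98% of the 1752 CD3-positive cells. There were 73 of them in the isotype control library, 90 in the library titled anti-human CTLA-4, 50 in the library titled anti-mouse FcγRII and 102 in the combination library.

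All hosts were C57BL/6 mice with a humanized CTLA-4 gene (B-hCTLA-4) that carried MC38 tumors, and tumors of 11 mice were pooled into each library on day 8 after 3 treatments that began at 100 mm3. Isotype control mice received human IgG1 at 10 mg/kg, and the combination was ipilimumab, a human IgG1 against CTLA-4, at 10 mg/kg with an antibody against mouse FcγRII (clone AT130-2, mouse IgG1 with N297A in its Fc part) at 20 mg/kg. Titles and treatment fields of the sample records name opposite antibodies for the 2 single-antibody libraries. Which of them received ipilimumab is not settled, and both are called by their titles. Cells with Foxp3 and no Cd8 UMI made up 17.5% of CD3-positive cells in isotype control and 15.8% in the library titled anti-mouse FcγRII. They made up 5.80% in the library titled anti-human CTLA-4 and 1.47% in the combination. By flow cytometry in C57BL/6 mice, the article reports a trend toward fewer Tregs, which express Foxp3, under an antibody against mouse CTLA-4 alone. From single-cell data of the humanized mice it reports a correlation of the combination's efficacy with stronger Treg depletion. The Foxp3 shares given here run the way the titles say, but an exchange of labels was not tested. The article states a different day, doses and number of tumors from the sample records, which are followed here. For the humanized mice, age and sex are not given separately in the sources used here.

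With 1 library per treatment, a treatment cannot be told apart from its library or its pool of tumors, and no test was made between treatments. Ranges in brackets are 95% intervals and reflect counting alone, exact binomial for shares, on the log scale for ratios of shares and exact conditional for ratios of counts. Levels are UMIs of a gene per 1000000 UMIs of the cells named (CPM). The double-negative cells held 474542, 545713, 336049 and 821614 UMIs in isotype control, the library titled anti-human CTLA-4, the library titled anti-mouse FcγRII and the combination, the order used throughout, with medians of 3977, 4408.5, 4566 and 5303 UMIs per cell. No full cell barcode occurred in more than 1 library, but 87 of the 315 double-negative cells shared the first 16 bases of their barcode with another cell of the series, none of these CD3-positive.

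Most T cells of a tumor use an αβ receptor and a coreceptor that binds MHC. T cells without either coreceptor include γδ T cells, whose receptor is built from other variable and constant genes, and innate-like αβ T cells such as NKT cells. Some γδ T cells are committed in the thymus to interleukin-17, and others carry NK receptors and the granules of cytotoxic cells. NK cells lack a rearranged receptor but are known to transcribe parts of the unrearranged δ and β loci.

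The name holds for RNA only. When every CD3-positive cell was drawn down to 2428 UMIs, 4.66% of 616 CD8 T cells and 9.68% of 304 conventional CD4 T cells had no coreceptor UMI left, so a share of the members can be coreceptor-positive cells read at low depth. Just outside the rule were 35 cells with a single Cd4 UMI, 97.1% of them with a Trac UMI, and 22 with a single Cd8a or Cd8b1 UMI, 81.8% with Trac. At the CD3 limit, 13 members had exactly 3 CD3 UMIs, of which 30.8% had Trac, and 25 cells outside had 2, of which 12% had Trac. Another 24 CD3-positive cells had 0.2% to under 0.4% of their UMIs on the macrophage genes, and 309 had 0.4% or more, with a median of 29492 UMIs. As values that chose the members, these counts carry no test.

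Of the 4 markers named for the cells, Cd3e, a CD3 subunit and part of the rule, had a UMI in 264 of 315. Trdc, the δ constant gene, had a UMI in 126. Klrb1c, the NK receptor NK1.1, had one in 122. Cd163l1, a scavenger receptor of γδ T cells, had one in 24. At equal depth Trdc was read in 36.7% (31.0 to 42.8) of double-negative cells, 1.25% of CD8 T cells and 2.67% of conventional CD4 T cells, but also in 30.4% of NK cells and ILC1, against 0.663% of macrophages. The name double-negative T cells therefore covers several kinds of cell, and the receptor genes were read first.

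Receptor genes divided the members into all the possible kinds. Trac, the α constant gene, occurred without Trdc, Tcrg-C1 or Tcrg-C2 in 97 cells (30.8%, 25.7 to 36.2). A further 105 cells (33.3%) had Trac together with at least 1 of those δ and γ genes. In 88 cells (27.9%, 23.1 to 33.2) δ or γ constant RNA was read without Trac, and 25 (7.94%) had none of the 4 genes. Among 674 CD8 T cells 87.8% had Trac alone and 3 had only δ or γ genes, and among 358 conventional CD4 T cells 93.0% had Trac alone and 0 had only δ or γ genes, with an exact upper bound of 1.03%. NK cells and ILC1 had Trac in 3.55% of 1296 cells, δ or γ genes without Trac in 41.4% and none in 55.0%. The bars of receptor RNA show the mixed class as the widest in type 17 cells and the class with none as the widest in NK cells.

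**Figure D1:**
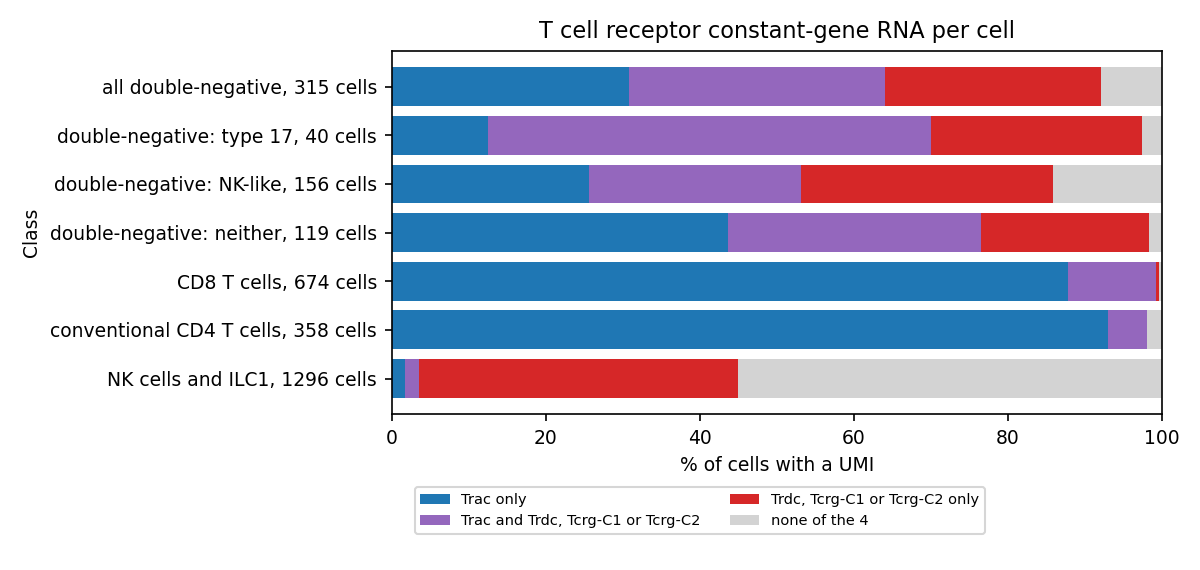
Share of cells (x axis, % of cells) with a UMI of Trac only (blue), of Trac and at least 1 of Trdc, Tcrg-C1 and Tcrg-C2 (purple), of those without Trac (red) or of none (grey), for double-negative T cells, their subsets and 3 other classes, the 4 libraries pooled. Blue makes up 30.8% of the double-negative bar and 87.8% of the CD8 bar, and grey makes up 14.1% of the NK-like bar.

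The subsets were set by a count of genes. A cell with a UMI of at least 2 of 8 listed genes, among them Il17a, Il17f, Il23r, Cd163l1, Ccr6, Blk and Sox13, was called type 17, and a cell with at least 2 of Klrb1c, Ncr1, Klre1, Klra4, Klra7, Klra8 and Eomes was called NK-like. There were 40 type 17 cells, 156 NK-like cells, 119 cells of neither kind and 0 of both. The type 17 limit fell in a gap: 269 cells had none of its genes, 6 had 1 and 9 had 2. The NK-like limit had no such gap, with 112 cells at 0 genes, 47 at 1, 54 at 2 and 46 at 3, so that 54 of the 156 NK-like cells sat at the limit. Median UMIs were 3974.5 in type 17, 6562 in NK-like and 3584 in neither, so NK-like cells were the deepest. Differences in the genes that set the subsets are given as descriptions.

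In type 17 cells, Blk, a Src family kinase (chr14:63372836-63417037, minus strand, GRCm38), was read in 32 of 40, and Il23r, the receptor for interleukin-23, in 26. Cd163l1 (chr7:140218267-140231145, plus strand) and the transcription factor gene Sox13 were each read in 22, and the chemokine receptor gene Ccr6 in 17. The cytokine genes were scarce, with Il17a in 4 cells and Il17f in 2. Pooled levels of Cd163l1 were 1322 CPM in type 17, 1.35 in NK-like and 1.96 in neither, and those of Il23r were 467, 0 and 0 CPM. Genes outside the rule of the subset followed: Il1r1, the interleukin-1 receptor, was read in 30 of 40 cells, Il17re, a receptor subunit of interleukin-17C, in 23, and Tmem176b in 38. Levels of Maf, a transcription factor of type 17 cells, were 887 CPM in type 17 against 74.4 in NK-like and 186 in neither, and those of Aqp3, a glycerol and water channel, were 262, 4.06 and 3.93 CPM.

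The 250 bases before the start of Il23r and Ncr1 are shown because the type 17 gene Il23r and the NK receptor gene Ncr1 mark the 2 subsets, and that of Cd163l1 because it is the named marker of the type 17 cells. The letters searched were AGGTCA, the core of elements bound by nuclear receptors, which on the other strand reads TGACCT. Capitals mark both, and the sequences are from RefSeq (GRCm38.p6), written 5′ to 3′ along the strand of the gene.
Il23r, chr6:67491856-67492105, minus strand: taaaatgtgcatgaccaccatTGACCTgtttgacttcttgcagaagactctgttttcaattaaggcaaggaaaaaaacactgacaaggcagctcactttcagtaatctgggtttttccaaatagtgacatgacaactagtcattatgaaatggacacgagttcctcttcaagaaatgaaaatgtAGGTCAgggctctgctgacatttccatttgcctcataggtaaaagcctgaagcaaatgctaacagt
Cd163l1, chr7:140218017-140218266, plus strand: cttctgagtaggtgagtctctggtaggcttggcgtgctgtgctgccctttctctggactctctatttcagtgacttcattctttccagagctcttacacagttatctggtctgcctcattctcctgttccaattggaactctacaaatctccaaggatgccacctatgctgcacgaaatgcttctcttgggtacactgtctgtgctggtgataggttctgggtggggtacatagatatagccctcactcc
Ncr1, chr7:4337474-4337723, plus strand: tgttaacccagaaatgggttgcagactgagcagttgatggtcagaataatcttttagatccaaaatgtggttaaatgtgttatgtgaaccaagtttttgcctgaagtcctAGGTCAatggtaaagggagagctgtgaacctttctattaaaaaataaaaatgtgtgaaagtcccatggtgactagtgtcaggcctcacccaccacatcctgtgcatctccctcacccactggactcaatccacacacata
Il23r held 2 matches of the core, Ncr1 held 1 and Cd163l1 held none. Of the 6 type 17 genes with an entry, 4 had a match in at least 1 promoter, as had 1 of 7 NK genes and 15.8% of 27025 genes overall. A match describes letters in the window and not a bound site.

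Several γδ receptor genes had their highest levels in type 17 cells, but most of these cells also had Trac. Trdc (chr14:54142851-54148868) was read in 24 of 40 and reached 2739 CPM, against 564 in NK-like and 1140 in neither. Tcrg-C1, a γ constant gene, reached 561, 49.4 and 122 CPM. Among variable genes, Tcrg-V6 (chr13:19190356-19190929) was read in 20 of 40 type 17 cells and reached 740 CPM, against 10.8 in NK-like and 9.81 in neither. Tcrg-V4 was read in 11 of 40 type 17 cells and in 16 of 156 NK-like cells. Tcrg-V1 had the reverse order and was read in 4 of 40 type 17 cells, 33 of 156 NK-like cells and 34 of 119 cells of neither kind. Trac was read in 28 of 40 type 17 cells, and 5 of the 40 had Trac without δ or γ constant RNA. Another 23 had Trac with Trdc, Tcrg-C1 or Tcrg-C2, and 11 had those genes without Trac. Which receptor the cells used was not tested. The γ constant genes are near-identical copies, and how their probes separate them was not tested.

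Other genes were also highest in type 17 cells. Zbtb16, which encodes the innate-lineage factor PLZF, was read in 33 of 40 and stood at 703 CPM, against 21.7 in NK-like and 96.2 in neither. The interleukin receptor genes Il7r (1296, 118 and 438 CPM) and Il18r1 (1417, 288 and 426 CPM) had the same order. So had the chemokine receptor gene Cxcr6 at 1243, 152 and 334 CPM, and the costimulatory receptor gene Icos at 845, 75.8 and 165 CPM. Pdcd1, which encodes PD-1, was at 588 CPM in type 17 cells, 113 in NK-like and 236 in neither. In 1 type 17 cell of isotype control, 5 B cell genes were read, with 54 UMIs of Cd79a and 20638 UMIs in all. Without that cell Cd79a was at 0 in type 17 cells, Blk at 794 CPM and Ccr6 at 288 CPM.

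NK-like cells held the cytotoxic genes. Among the 156, Klrb1c (chr6:128778485-128789215, minus strand) was read in 110 and Ncr1, the receptor NKp46 (chr7:4337724-4345164, plus strand), in 88. Gzmc (chr14:56231441-56234656, minus strand), a granzyme gene, stood at 18295 CPM, against 5.25 in type 17 and 96.2 in neither. It was read in 70 of the 156, and the cell with most UMIs in each library held 13.3% to 74.4% of the Gzmc UMIs of that library, so that the pooled level rests on few cells. Gzmb, the main caspase-cleaving granzyme, was at 2168, 36.7 and 289 CPM. Prf1, which encodes perforin, was at 847, 0 and 19.6 CPM, and Xcl1, a chemokine for cross-presenting dendritic cells, at 1292, 0 and 310.1 CPM. Mki67, a proliferation gene, was at 286, 10.5 and 9.81 CPM, and at least 2 of 6 cell cycle genes were read in 25 of 156 NK-like cells, 1 of 40 type 17 cells and 0 of 119 cells of neither kind. At equal depth the share was 8.33% (4.20 to 13.6) in NK-like cells, against 15.1% in CD8 T cells and 5.75% in NK cells and ILC1.

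How far NK-like cells were T cells was read from receptor genes that NK cells lacked. Tcrg-C1 stood at 49.4 CPM in NK-like cells and Tcrg-C2 at 102 CPM, against means of 0.761 and 0.394 CPM over the 4 libraries in NK cells and ILC1. Trac was read in 83 of 156 NK-like cells (53.2%). At equal depth Trdc was read in 30.6% of NK-like cells and 30.4% of NK cells and ILC1, so it did not set them apart. Of the NK-like cells 22 (14.1%) had none of the 4 receptor genes, and Cd3e was read in 107 (68.6%), against 40 of 40 type 17 and 117 of 119 other cells. In the NK-like cells with a UMI of Trac, Tcrg-C1 or Tcrg-C2 alone, Gzmc stood at 5582 CPM and Gzmb at 1779 CPM. Whether NK cells with some CD3 RNA are among them was not tested.

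Cells of neither kind had Trac in 91 of 119 and Trdc in 40. They led in Ccl5, a chemokine of effector T cells, at 3321 CPM in neither, against 163 in type 17 and 1430.5 in NK-like. Klf2, a factor of recirculating lymphocytes, stood at 628 CPM, against 582 in type 17 and 149 in NK-like, and its target S1pr1, the egress receptor, at 285, 289 and 38.6 CPM. Lef1, a factor of naive T cells, was at 379, 147 and 127 CPM. Cd5, an inhibitor of receptor signalling, was at 253, 126 and 29.8 CPM in the same order. The map of levels by class shows these blocks beside the other T cells and NK cells.

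**Figure D2:**
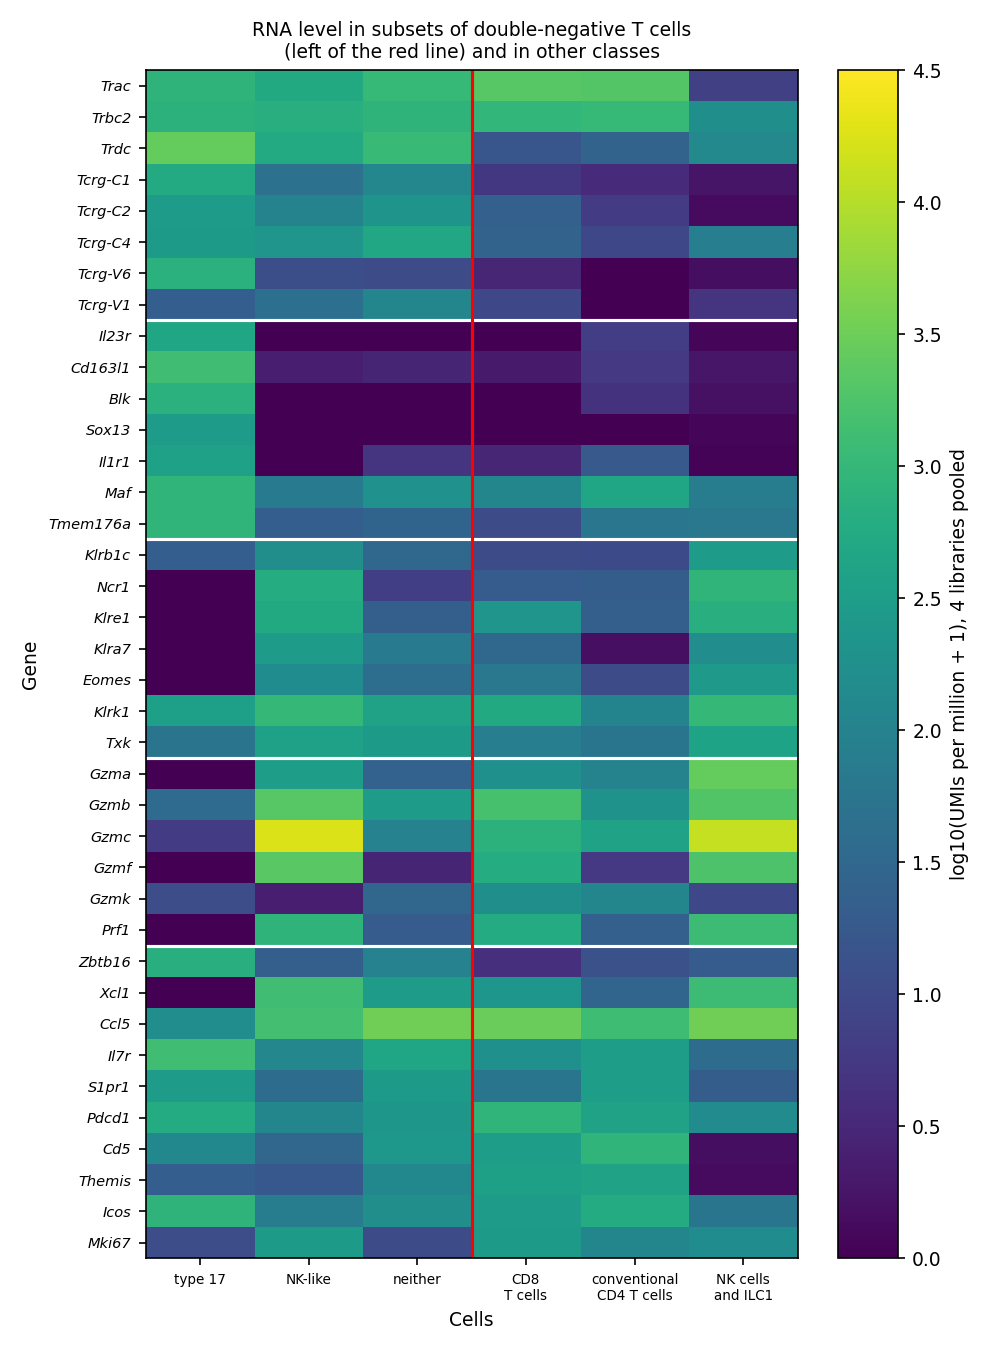
RNA levels (color, log10 of CPM + 1, the 4 libraries pooled) of receptor, type 17, NK, cytotoxic and other genes (rows) in the 3 subsets of double-negative T cells (left of the red line) and in CD8 T cells, conventional CD4 T cells and NK cells (right of it). Type 17 cells are bright in Cd163l1 (1322 CPM), NK-like cells in Gzmc (18295 CPM, read in 70 of 156 cells), and cells of neither kind in Ccl5 (3321 CPM).

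The members as a whole were then tested against other lymphocytes of the same libraries. UMIs were summed per library and class, and edgeR's quasi-likelihood test was run with the 4 libraries as replicates and the library as a block. Genes of the rule were left out, and p-values were adjusted over all genes tested (Benjamini-Hochberg, called under 0.05). The libraries are 4 treatments with 1 pool each, so the replicates also carry any effect of treatment. CD8 T cells (674) had a Cd8a or Cd8b1 UMI and no Cd4, conventional CD4 T cells (358) had Cd4 and no Foxp3, and NK cells and ILC1 (1296) had under 3 CD3 UMIs and at least 2 of the NK genes.

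Against CD8 T cells, receptor genes led. Trdc stood at 896, 944, 917 and 839 CPM in double-negative cells and at 28.8, 9.47, 20.0 and 13.7 CPM in CD8 T cells. The classes were far apart in every library, and the log2 difference was 5.74 ± 0.24 (SE, n = 4 libraries). Of 8484 genes tested, 276 (3.25%) were higher in double-negative cells and 348 (4.1%) lower. Among receptor constant genes Trdc, Tcrg-C1, Tcrg-C2 and Tcrg-C4 were called as higher. Tcrg-C1 had a mean of 4.64 CPM in CD8 T cells and passed the filter on low counts through the double-negative cells, so no count of the list is drawn. Trac was lower, at 792, 826, 637 and 543 CPM against 1835, 2816, 2779 and 1389 CPM, a log2 difference of -1.67 ± 0.15 (edgeR adjusted p = 0.000206). The values do not overlap, and Trac was lower in 4 of 4 libraries.

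Type 17 genes were read at low levels or not at all in CD8 T cells. Cd163l1 stood at 141, 141, 131 and 81.5 CPM against 0, 0.824, 7.28 and 0.416 CPM, which are given as a description. The combination was the lowest of the double-negative values, and each was above all of those in CD8 T cells. Blk and Il23r had no UMI in CD8 T cells, so that their levels were at least 137-fold and 85.6-fold higher, taken against a floor of 3 UMIs over the class. Like Cd163l1, they passed the filter on low counts through the double-negative cells alone, and no count of type 17 genes called is drawn from this comparison. Zbtb16 stood at 139, 114, 95.2 and 66.9 CPM against 5.53, 0, 1.82 and 5.82 CPM and also passed the filter through the double-negative cells. Of the other innate-like genes Itgb3 was higher, and Cxcr6, Il12rb2, Il18rap and Slamf1 were lower, with 3 not called. Il12rb2 and Il18rap lost the call without isotype control or the library titled anti-human CTLA-4. Among NK genes the highest ratios that did not rest on a class near 0 were those of Ncr1 at 4.31 ± 0.33 and Klrb1c at 3.66 ± 0.24. Ncr1 passed the filter on low counts through the double-negative cells, so both are given as descriptions. Klre1 differed by only 0.67 ± 0.17 (edgeR adjusted p = 0.0456), a call lost with a CD3 minimum of 5 and without isotype control, the library titled anti-human CTLA-4 or the combination. Among the 11 granule genes Gzmc, Gzmf and Ctsw were higher, Gzmk and Nkg7 lower and 6 not called. Gzmc was at 7612, 17047, 17691 and 10012 CPM against 166, 645, 2323 and 827 CPM, a log2 difference of 4.10 ± 0.38 (edgeR adjusted p = 0.000283). Gzmf was read in only 2, 3, 3 and 9 double-negative cells.

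Of 7 genes of inhibitory receptors and their regulators 4 were lower than in CD8 T cells and 3 were not called. Pdcd1 stood at 202, 187, 217 and 156 CPM against 659, 1114, 986 and 703 CPM, lower in 4 of 4 libraries by a log2 difference of -2.22 ± 0.14 (edgeR adjusted p = 4.33e-05). Also lower were Lag3 (-2.67 ± 0.26), Havcr2 (-2.72 ± 0.29) and Entpd1 (-1.52 ± 0.22). The 11 type 1 genes, of interferon-γ, its partners and chemokines, moved both ways, with 5 lower (Ccl3, Ccl4, Ccl5, Ifng and Tnf), 2 higher (Il12rb1 and Xcl1), 4 not called and a median log2 difference of -0.20. The chemokine gene Ccl4 had one of the largest differences, at 35.8, 58.6, 26.8 and 18.3 CPM against 718, 1497, 633 and 1557 CPM (-5.11 ± 0.30, edgeR adjusted p = 2.39e-05). Ifng, the gene for interferon-γ, differed by -2.26 ± 0.27 and Ccl5 by -0.74 ± 0.15. Xcl1, a chemokine gene of NK and CD8 T cells, was higher by 1.72 ± 0.35 (edgeR adjusted p = 0.0176). Without the library titled anti-human CTLA-4, Ccl5, Tnf, Il12rb1 and Xcl1 lost the call, as did Ccl5 and Xcl1 without isotype control and Ccl5 and Tnf without the combination. Of 12 genes of αβ receptor signalling 8 were lower and 0 higher, of which Cd27, Cd28, Icos and Zap70 lost the call without the library titled anti-human CTLA-4. Among the 8 were Themis (-3.02 ± 0.20), needed for αβ selection in the thymus, Cd6 (-2.39 ± 0.23) and Cd5 (-1.88 ± 0.22). In contrast 5 of 7 genes of naive and recirculating cells were higher, among them Tcf7 (1.30 ± 0.21), S1pr1 (0.96 ± 0.18), Lef1 (0.77 ± 0.16) and Klf2 (0.58 ± 0.11). Double-negative cells were shallower than CD8 T cells, with medians of 4518 and 6782.5 UMIs. Among cells of at least 4000 UMIs S1pr1, Lef1 and Klf2 lost the call, as did Ccl5 and Tnf. Of 12 cell cycle genes Rrm2 was lower and 11 were not called. Median log2 differences were -1.52 for the inhibitory receptor list, -0.83 for αβ signalling and 0.77 for the naive list.

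Other genes with the lowest ratios to CD8 T cells were Igfbp7, Trbv31, a β variable gene, Slc17a6, Il1r2, the decoy receptor for interleukin-1, Sema7a, Gpm6b and Csf1, the macrophage growth factor. Their log2 differences lay between -5.29 (Igfbp7) and -4.24 (Csf1), all in the same direction in 4 of 4 libraries. Igfbp7 had 3 UMIs in double-negative cells, and the ratio of its level in CD8 T cells to theirs was 37.2 (12.6 to 181). The count of calls rested on particular libraries: 624 genes were called in all, 224 without the library titled anti-human CTLA-4 and 291 without isotype control. Of the 80 called genes that are listed or named here, 30 lost the call without the first, among them Tcf7, S1pr1, Lef1, Klf2, Ctsw, Nkg7 and Ccl5, and 24 without the second, among them Lef1, Klf2, Ctsw, Nkg7 and Ccl5, and 0 changed direction.

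Against conventional CD4 T cells NK genes had some of the highest ratios. Of 7879 genes 284 (3.6%) were higher and 279 (3.54%) lower. The receptor genes Klre1 (3.93 ± 0.28 on the log2 scale), Klrd1 (3.05 ± 0.29) and Klrk1 (2.76 ± 0.30) were higher, as was the factor gene Eomes (3.55 ± 0.37). Some genes of the NK and granule lists, Klra7 and Gzmf among them, were near 0 in CD4 T cells and passed the filter on low counts through the double-negative cells, so no count of those lists is drawn from this comparison. Xcl1 stood at 653, 1437, 830.2 and 845 CPM against 13.0, 32.6, 7.61 and 40.1 CPM, with every value above those of CD4 T cells. Its log2 difference was 5.16 ± 0.28, given as a description because Xcl1 also passed that filter through the double-negative cells. Gzmf and Klra7, an NK receptor of the Ly49 family, differed by 8.17 ± 0.51 and 8.22 ± 0.41, Klra7 having a single UMI in CD4 T cells, with a ratio of 432 (77.1 to 17092). Gzmf came from few cells, and without the cell with most of its UMIs it was at 9.20 CPM in isotype control, under the 10.8 CPM of CD4 T cells there. The γ variable genes Tcrg-V6 and Tcrg-V1 had no UMI in CD4 T cells and were at least 49.2-fold and 38.0-fold higher over the floor of 3 UMIs. Clnk, an adaptor of immune signalling, and the Ly49 gene Klra6 were also among the 8 highest.

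Type 17 genes differed from CD4 T cells only in part. Cd163l1 stood at 2.17, 5.21, 22.8 and 1.604 CPM in CD4 T cells, under each of the double-negative values given above (4.63 ± 0.38 on the log2 scale). It passed the filter on low counts through the double-negative cells, so this difference is given as a description. Blk (4.27 ± 0.62) and Il23r (2.77 ± 0.62) were also called as higher, and 2 other genes of the list that were tested were not called. For the same reason no support is drawn from the number of type 17 genes called. Maf (-1.30 ± 0.22) and Rora (-1.66 ± 0.21), both factors of Th17 cells, were lower. Among the lowest ratios were Il1r2 (-5.40 ± 0.52), the chemokine receptor gene Ccr4 (-3.46 ± 0.33), Cd5 (-3.27 ± 0.23), the costimulatory receptor gene Tnfrsf4 (-3.30 ± 0.52), Gzmk (-3.68 ± 0.48), Gpm6b, St8sia1 and Ramp3. Of the 12 αβ signalling genes 6 were lower and 0 higher. Of 12 cell cycle genes 6 were higher (Ccna2, Mcm5, Rrm2, Stmn1, Tk1 and Top2a) and 0 lower, but all 6 lost the call without the library titled anti-human CTLA-4. By cells, at least 2 of 6 cell cycle genes were read at equal depth in 4.603% (2.57 to 8.03) of double-negative cells and 5.10% (3.04 to 8.41) of conventional CD4 T cells. In the naive list Ccr7, Klf2 and S1pr1 were lower, and 1 of the 7 genes tested was higher.

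The 563 calls against CD4 T cells fell to 189 without the library titled anti-human CTLA-4. Then 21 of 75 listed or named genes lost the call, among them Il23r, Ncr1 (edgeR adjusted p = 0.0631), Zbtb16 (0.0624 by the same test), Maf, Klf2 and Top2a, and 0 changed direction. Without isotype control Il23r, Klf2 and Top2a also lost it.

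Compared with NK cells and ILC1, double-negative cells had the receptor. Trac stood at 4.67, 7.70, 6.501 and 5.09 CPM in NK cells, far under the values of 792, 826, 637 and 543 CPM given above (6.87 ± 0.16 on the log2 scale). It passed the filter on low counts through the double-negative cells, so this difference is given as a description. Of 9691 genes 478 (4.93%) were higher in double-negative cells and 416 (4.29%) lower. Tcrg-C2 had a mean of 0.394 CPM in NK cells and, like Trac, passed the filter on low counts through the double-negative cells. No count of constant genes is therefore drawn from this comparison. Trbc1 was not called (-0.40 ± 0.13, edgeR adjusted p = 0.0931). The β variable genes Trbv14, Trbv17, Trbv4 and Trbv29 had no UMI in NK cells and were at least 310-fold, 318-fold, 289-fold and 210.4-fold higher. Tcrg-C2 and Trbv12-2 were also among the 8 highest. Cd5 stood at 156, 110, 77.4 and 45.0 CPM against 1.40, 0, 0.929 and 0 CPM. Cd5 passed the filter on low counts through the double-negative cells, so no count of αβ signalling genes is drawn from this comparison. The NK class was also chosen by its few CD3 UMIs, which favors such differences. Il7r was higher by 3.03 ± 0.18 and S1pr1 by 2.63 ± 0.25. Zbtb16 was at 139, 114, 95.2 and 66.9 CPM against 21.0, 21.4, 11.1 and 20.9 CPM (2.45 ± 0.24, edgeR adjusted p = 0.000156), with no overlap.

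Among granule genes, Gzmc stood at 9899.7, 9174, 9096 and 19956 CPM in NK cells, overlapping the double-negative values (0.17 ± 0.36, edgeR adjusted p = 0.849). Gzma was lower in double-negative cells, at 126, 502, 283 and 98.6 CPM against 2927, 3919, 2010 and 1947 CPM (-3.58 ± 0.31, edgeR adjusted p = 7.84e-05). Gzme and Gzmg were lower as well and 9 of 12 granule genes were not called, a count that changed with the cells of the NK class, as given next. Klra8, an activating Ly49 receptor, differed by -2.89 ± 0.23. NK genes that defined the NK class were lower in 6 of 7 cases, which the choice of that class favors.

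Among the lowest ratios to NK cells were those of Cd34, Pdgfra, Yap1, Dpysl3, Col3a1, Rhox5 and Col6a1, genes of stroma or tumor cells. In the NK class 18 of 1296 cells had at least 3 of 8 stroma and tumor genes. They held 13.4% of its UMIs, with a median of 81310 UMIs against 4619.5 for the rest, and 0 double-negative cells were of that kind. Without them, a choice made after seeing the data, 385 of 9275 genes (4.15%) were higher and 268 (2.89%) lower. The αβ signalling genes Cd28 and Lck, called as higher with all NK cells, then lost the call. Both also lost it without isotype control or the library titled anti-human CTLA-4. Of 11 granule genes 6 were lower (Gzma, Gzmd, Gzme, Gzmg, Prf1 and Fasl) and 5 not called, of 13 other NK genes 10 were lower in place of 3, and Trbc1 was called as lower. The lowest were Gzma (-3.85 ± 0.23), Serpinh1, Klra8 (-3.10 ± 0.21), Klra4 (-3.10 ± 0.32), Dsc2, Gzmg (-2.86 ± 0.31), Ccl4 (-2.62 ± 0.20) and Gzme (-2.51 ± 0.34). Calls fell from 894 to 432 without isotype control and to 565 without the library titled anti-human CTLA-4, and 8 and 6 of 78 listed or named genes then lost the call. Ly49 and granzyme genes are families of close copies, and how probes separate them was not tested.

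**Figure D3:**
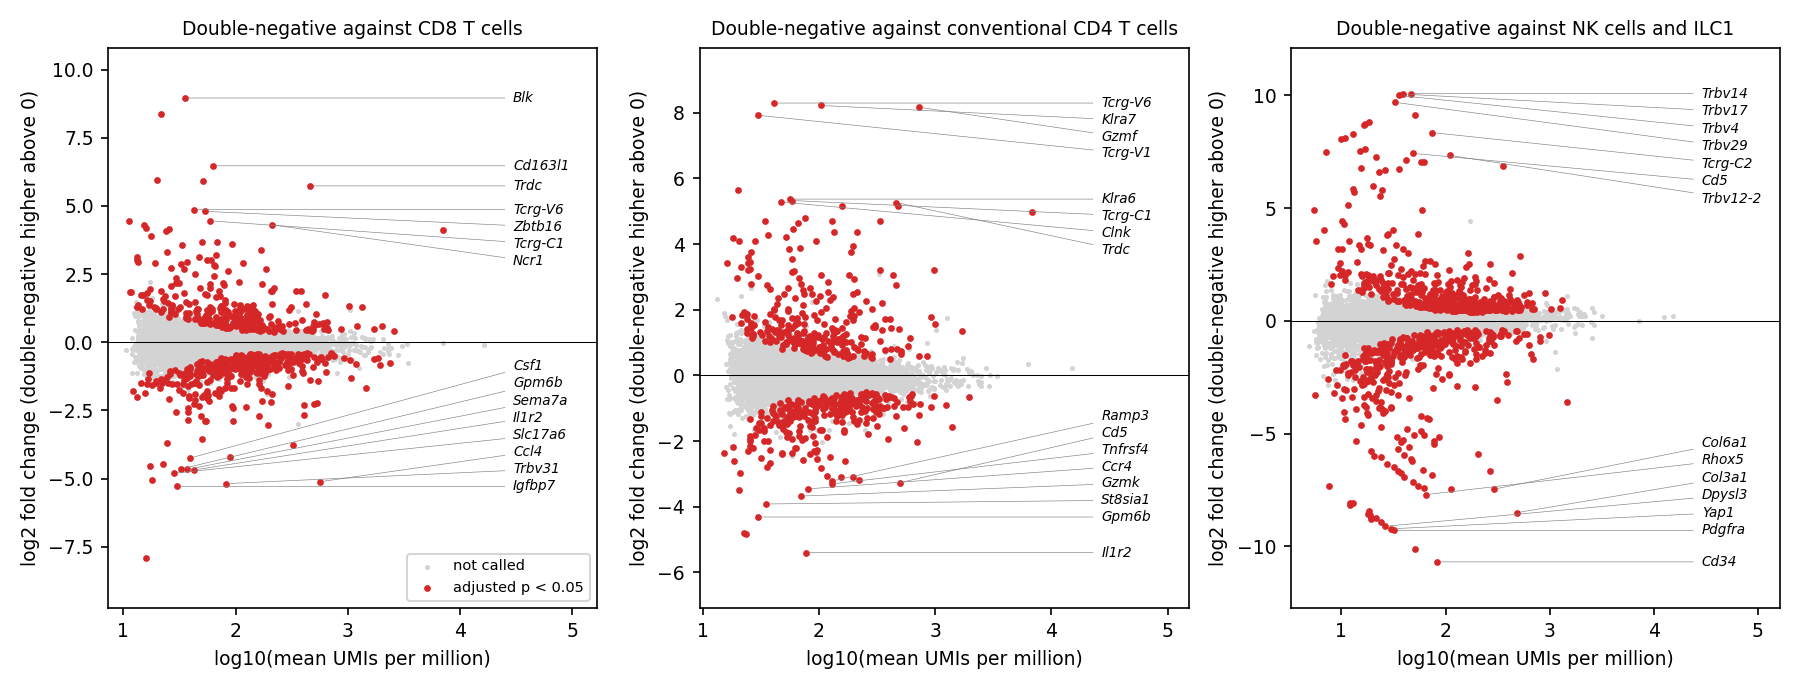
Log2 fold change (y axis, double-negative higher above 0) against log10 of the mean level in CPM (x axis) for every gene tested in double-negative T cells against CD8 T cells (left), conventional CD4 T cells (middle) and NK cells (right). Red genes had an edgeR adjusted p under 0.05, 624, 563 and 894 genes, and most of the 8 highest and 8 lowest of those with at least 50 CPM in the higher class are labelled; fitted values near the top come from genes at 0 in the other class.

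Between libraries, the share of double-negative cells among CD3-positive cells was lowest in the library titled anti-human CTLA-4. As gated it was 17.98% (14.4 to 22.1) in isotype control, 13.7% (11.2 to 16.6) in that library, 23.3% (17.8 to 29.5) in the library titled anti-mouse FcγRII and 21.4% (17.8 to 25.4) in the combination. Drawn down to 2428 UMIs per cell the shares were 23.2%, 16.5%, 26.4% and 26.7%, and the ratios to isotype control 0.710 (0.547 to 0.923), 1.14 (0.843 to 1.54) and 1.15 (0.902 to 1.47). Only the first of these intervals lies off 1, and as gated its ratio was 0.764 (0.576 to 1.01). The denominator decided the direction, because that library had the most CD3-positive cells (655, against 406, 215 and 476). As a share of all cells kept, the ratios were 1.58 (1.16 to 2.15), 0.917 (0.641 to 1.31) and 1.498 (1.11 to 2.02).

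Type 17 cells numbered 16, 9, 4 and 11 in the 4 libraries and were 21.9%, 10.0%, 8.0% and 10.8% of the double-negative cells. Isotype control had the highest share. The ratios to it, drawn down, were 0.461 (0.199 to 1.07), 0.348 (0.107 to 1.13) and 0.534 (0.248 to 1.15), and all of these intervals include 1. Under other limits, drawn down as well, some lay below 1, with 0.298 (0.115 to 0.770) for the library titled anti-human CTLA-4 with macrophage genes under 0.05% of UMIs, and with 1 gene asked 0.397 (0.182 to 0.866) for that library and 0.440 (0.214 to 0.903) for the combination. As gated they were 0.456 (0.214 to 0.972), 0.365 (0.130 to 1.03) and 0.492 (0.243 to 0.997). NK-like cells numbered 24, 48, 24 and 60, or 32.9%, 53.3%, 48.0% and 58.8%, and isotype control was the lowest under this limit. Their ratios drawn down were 1.64 (1.03 to 2.64), 1.37 (0.781 to 2.39) and 1.75 (1.11 to 2.77), 2 intervals lying above 1. Both include 1 among cells of at least 4000 UMIs (0.854 to 2.48 and 0.943 to 2.64) and with 3 genes asked in place of 2 (0.806 to 3.04 and 0.634 to 2.49). With 3 genes the ratio for the library titled anti-mouse FcγRII was 0.882 (0.357 to 2.18), so isotype control was then not the lowest. The first also does with macrophage genes under 0.05% of UMIs (0.921 to 2.63), with 1 gene asked (0.999 to 1.81) and among cells with Trac, Tcrg-C1 or Tcrg-C2 (0.987 to 3.68). The remaining cells numbered 33, 33, 22 and 31. The plot of shares gives each with its interval.

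**Figure D4:**
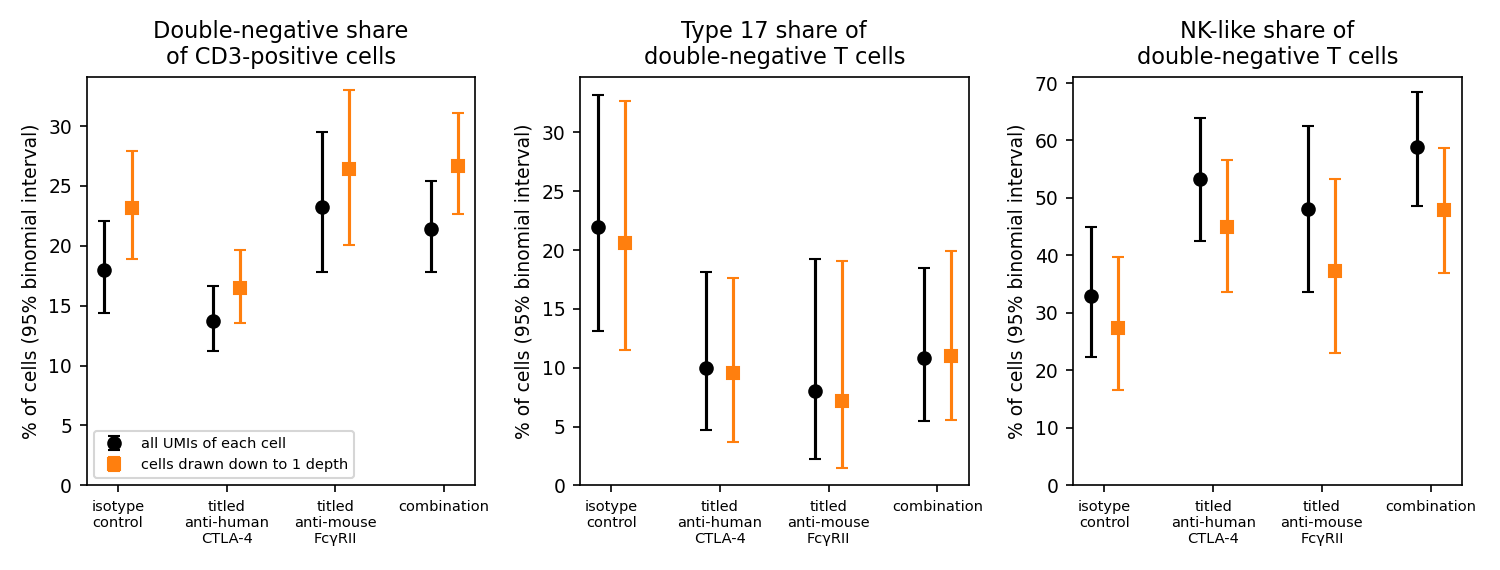
Share of double-negative cells among CD3-positive cells (left) and of type 17 (middle) and NK-like cells (right) among double-negative cells in the 4 libraries, in % of cells with 95% binomial intervals for counting error. Black points use all UMIs and orange squares cells drawn down to 1 depth; isotype control is highest for type 17 (21.9%) and lowest for NK-like cells (32.9%).

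Levels of subset genes followed those shares only in part. Blk was highest in isotype control at 139 CPM, against 64.1, 47.6 and 30.4, and so was Tcrg-V6 (143 against 64.1, 83.3 and 37.7 CPM). Cd163l1 differed less, at 141, 141, 131 and 81.5 CPM, and Trdc ranged only from 839 to 944 CPM. Ncr1 was lowest in isotype control at 236 CPM, against 541, 384 and 445 CPM, and Klrb1c stood at 92.7, 178, 134 and 102 CPM. A level of at least 100 CPM in a library or in isotype control was asked of a gene for a count of 2-fold differences, and 3 of the 8 type 17 genes reached it. Blk reached it in isotype control alone, so no count of lower type 17 genes is drawn. Over all genes that reached it the share at least 2-fold lower was 4.57% in the library titled anti-human CTLA-4, 2.53% in the library titled anti-mouse FcγRII and 1.41% in the combination. Fewer cells of a kind and less RNA per cell cannot be told apart in such sums.

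Of the 11 granule genes that reached it, 4, 4 and 3 were at least 2-fold higher than isotype control in the libraries titled anti-human CTLA-4 and anti-mouse FcγRII and in the combination, where 1.23%, 1.58% and 1.8% of all genes were. Gzmf was higher in all 3, at 527, 1873, 1565 and 1861 CPM, and 3, 3 and 1 genes were at least 2-fold lower. These sums came from few cells. Gzmc was read in 11, 24, 11 and 30 cells, and the cell with most UMIs held 45.4%, 74.4%, 52.6% and 13.3% of them. Without that cell its levels were 4538, 4692, 9117 and 8854 CPM in place of 7612, 17047, 17691 and 10012. Gzmb was lowest in the combination, at 706 CPM against 2055, 2188 and 1812 CPM, but 75.6% of its UMIs in isotype control lay in 1 cell, and without the top cells the levels were 548, 1378, 1221 and 627 CPM. Gzmf without them was at 9.20, 84.8, 739.97 and 1344 CPM. Gzmd had no UMI in the library titled anti-human CTLA-4 and was at 628, 152 and 1437 CPM in the others. The plot of granzyme levels sets both versions side by side.

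**Figure D5:**
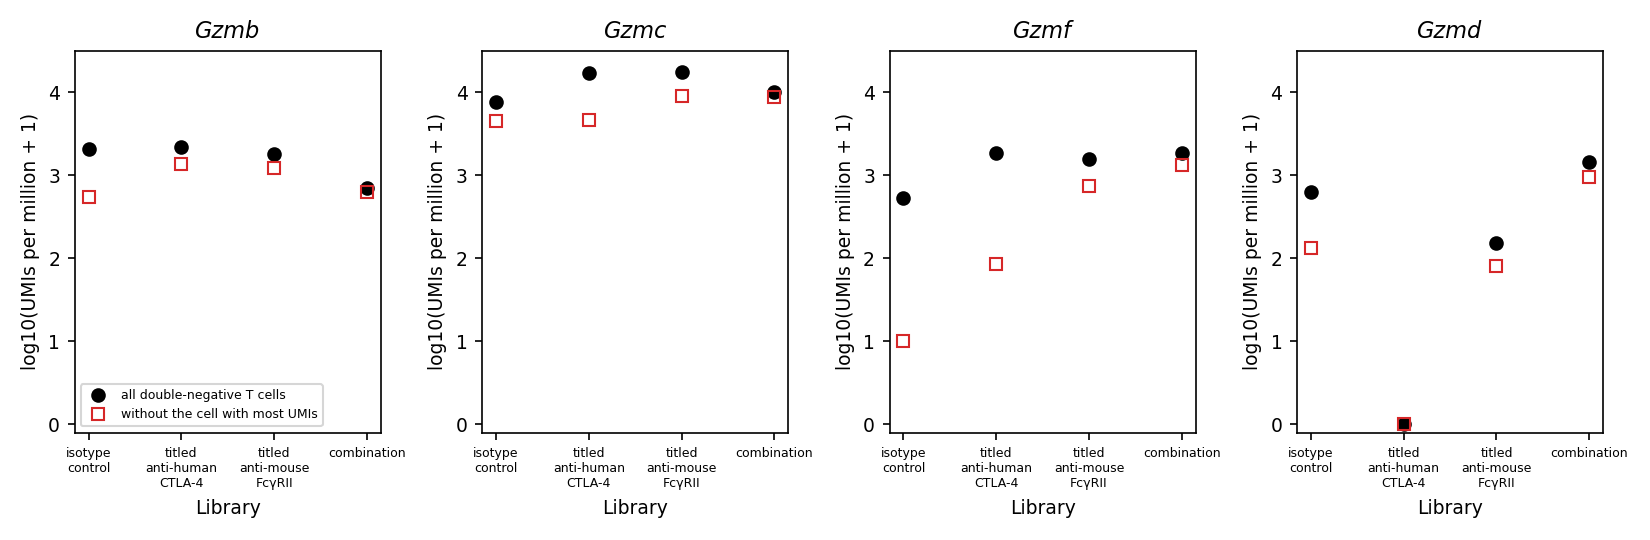
Levels of 4 granzyme genes in double-negative T cells of the 4 libraries (x axis) as log10 of CPM + 1 (y axis), from all cells (black circles) and without the cell with most UMIs of that gene (red squares). For Gzmb the isotype control point drops from 2055 to 548 CPM, close to the 627 CPM of the combination, and Gzmd is at 0 in the library titled anti-human CTLA-4.

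Genes at least 2-fold apart from each of the other libraries were then listed, with at least 100 CPM, 30 UMIs and 10 cells on the higher side. In isotype control 13 genes stood above, among them Gatm, Rnase4, Ms4a7 and Gadd45b, and 5 below, Styk1, Igflr1, Arsb, Tent5a and B2m. A single cell held 44.8%, 54.4%, 57.6% and 52.5% of the UMIs of Gatm, Rnase4, Ms4a7 and Gadd45b in isotype control. As means over cells the ratio to the nearest library was 2.68 in place of 4.55 for Gatm and 1.35 in place of 2.61 for Ms4a7. B2m, the light chain of MHC class I, stood at 1100.0, 2401, 2300.3 and 3369 CPM and was read in 72 of 73, 90 of 90, 50 of 50 and 99 of 102 cells. In the library titled anti-human CTLA-4 no gene stood above and 16 below, the first 5 being Lyz2, Fn1, Spp1, Apoe and Aif1. Serpina3f and Tspan3 stood above and Gyg, which primes glycogen synthesis, below in the library titled anti-mouse FcγRII, but as a mean over cells Serpina3f was only 1.10 times its level in the combination, against 2.33 times from the sums. In the combination 24 genes stood above, the first 5 being Slfn4, Fpr2, Cxcl2, Hmox1 and Nos2, and only Gzmb below. A single cell held 48.2% of the Cxcl2 UMIs there, and the ratio of Cxcl2 to isotype control, 6.09, was 3.07 with a CD3 minimum of 5 and 3.17 with the highest doublet scores left out. All 3 double-negative cells among the 5% of highest doublet scores were in the combination. Gzmb was at 0.390 of its level in the library titled anti-mouse FcγRII from the sums but at 0.634 as a mean over cells, which is less than 2-fold apart.

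Macrophage RNA also differed between the libraries. All 12 genes of the macrophage list had a UMI in the double-negative cells of each library, with summed levels of 4461, 676, 3190.0 and 3151 CPM. Lyz2, a lysozyme gene of myeloid cells, was the most abundant in 3 libraries at 1736, 1473 and 1433 CPM and stood at 183 CPM in the library titled anti-human CTLA-4, where Ctsb led. Apoe, Cd68 and Ms4a7 stood at 1096, 215 and 194 CPM in isotype control. In the library titled anti-human CTLA-4 they stood at 97.1, 56.8 and 16.5 CPM. They reached 100 CPM through isotype control alone, so no count of lower macrophage genes is drawn for that library. For the library titled anti-mouse FcγRII and for the combination 9 macrophage genes reached that level there or in isotype control. Of these, 3 (Apoe, Mrc1 and Ms4a7) were at least 2-fold lower and Cd14 was higher in each, with median log2 ratios of -0.81 and -0.28. Over all genes 2.53% and 1.41% were at least 2-fold lower and 1.58% and 1.8% higher. Ms4a7, at 74.4 and 47.5 CPM, reached the level through isotype control alone. The summed level of the combination, with the longest list above, was thus under that of isotype control and close to that of the library titled anti-mouse FcγRII. The part of macrophage RNA in the differences between libraries was not tested. Against the other classes 2 of 11 macrophage genes (Cd68 and Ctsb) were lower than in CD8 T cells, 0 of 11 differed by the test from CD4 T cells and 1 of 12 (Cd63) was lower than in NK cells. Without isotype control both Cd68 and Ctsb lost the call, and Cd68 also without the library titled anti-human CTLA-4 or the combination. Cd63 lost it without the NK cells with stroma genes. Genes of other cells were called as well. Ighm, the μ heavy chain gene of B cells, was higher than in CD8 T cells (1.89 ± 0.19 on the log2 scale, edgeR adjusted p = 0.000349) and NK cells (0.88 ± 0.16) and not called against CD4 T cells, and Cd79b was higher than in NK cells (2.04 ± 0.42). Itgax, a dendritic cell gene that NK cells also express, was higher than in CD8 T cells (1.03 ± 0.24) and CD4 T cells (1.72 ± 0.36) and lower than in NK cells (-0.70 ± 0.17), and each of these 3 calls was lost without the library titled anti-human CTLA-4, the first also without the combination and the others also without isotype control. The part of RNA from B cells or dendritic cells in the differences between classes was not tested. The 6 B cell genes summed to 1087, 553, 499.9 and 380 CPM, with Ighm the most abundant in each library. Of the genes defining other cells, 5 mast cell and basophil genes summed to 5.05 CPM and 8 stroma and tumor genes to 13.8 CPM over all double-negative cells.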

How the data were processed

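Sorted CD45-positive cells of 4 libraries were profiled with 10x Flex probes. The values are UMI counts per probe set and cell, which the authors made with Cell Ranger and deposited without normalization or removal of doublets; the labels name mm10 and version 7.0.0, and the matrix headers version 7.2.0. Libraries held 178178393, 129151823, 142472286 and 196362818 UMIs in 8173, 6390, 6097 and 7630 cells. Members, gene lists and tests were chosen with earlier results of these data known; the list of γ variable genes and the alternatives on receptor RNA, B cell genes and stroma genes were added after the data were seen.

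UMIs were summed per library and class, and edgeR 4.0.16 (R 4.3.3) compared classes with the library as a block, the rule's own genes left out. DESeq2 1.42.0 was an alternative. On simulated counts, 58% (CD8 comparison, 8519 genes), 65% (CD4, 7998 genes) and 61% (NK, 10001 genes) of genes changed 2-fold were recovered. Named genes were the listed genes, the 8 highest and 8 lowest called genes with at least 50 CPM in the higher class and 1 direction in all 4 libraries, and up to 5 genes per library and side. To compare shares, cells were drawn down to 2428 UMIs (100 draws, shallower cells left out: 48, 65, 24 and 38 of the CD3-positive cells). A Scrublet score (scanpy 1.11.5) called almost no doublets and so had not worked; leaving out the 5% highest scores was an alternative, and 3 double-negative cells were among them. A floor of 3 UMIs was 6.32, 5.50, 8.93 and 3.65 CPM. Intervals do not cover differences between tumors. A few genes of the lists are not reported here by name, though they enter counts.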

Additional observations from a re-analysis of the deposited data

How the results depend on the processing

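With 1 library a treatment, no result between treatments has a replicate check. The hosts carry a humanized CTLA-4 gene, and what the mouse Ctla4 probes read in them was not tested. Taken over all cells kept, the ratio of the double-negative share to isotype control was 1.58 for the library titled anti-human CTLA-4 and 0.917 for the library titled anti-mouse FcγRII. Genes called against CD8 T cells numbered 624, and 1041 with no filter on low counts, 362 with DESeq2 and 224 to 833 with 1 library left out. Without the library as a replicate block, which pairs the classes of a library, 317 were called. Against conventional CD4 T cells 563 were called, 356 with DESeq2 and 189 to 487 with 1 library left out. Against NK cells 894 were called, 1428 with no filter, 432 to 1245 with 1 library left out and 653 without NK-class cells with stroma genes. The cause was not tested, beyond the fewer libraries or the more genes that enter. Of the values under all alternatives run, 97 of shares stayed within their error and 2 moved, 25 counts of calls stayed within 1.5 times and 10 moved, and 106 values of named genes stayed and 18 moved. Both moved ratios of shares crossed 1, from 0.764 to 1.58 and from 1.29 to 0.917.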
